A study of Bos taurus with 6 samples.

Results

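The actin cytoskeleton and contractile genes described here are 43 genes named by their platform gene symbol, and they were followed in bovine cumulus cells cultured with or without FID, a mixture of forskolin, IBMX and dipyridamole. All 43 had a probe on the array, with 75 probes among 43794 in all, and 39 genes on 69 probes were bright enough to be tested among 12381 tested genes. MYH9 and MYH10, which encode heavy chains of non-muscle myosin II, and TAGLN and CALD1, which encode the actin-binding proteins transgelin and caldesmon, were not tested. MYH9, TAGLN and CALD1 exceeded background on 3 of 6 arrays in each condition, and MYH10 on 1 of 6.

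Cumulus cells are somatic cells of the follicle that enclose the oocyte, and slaughterhouse ovaries of Holstein cows were their source. The FID group was matured in vitro with 100 µM forskolin, which activates adenylyl cyclase, together with 500 µM IBMX and 50 µM dipyridamole, a pair of phosphodiesterase inhibitors. The control group had none of the 3 compounds, and the medium of both groups held serum, estradiol, pyruvate and gentamicin. Control RNA is labelled with a time of 6 h, but maturation is described as lasting 22 to 24 h, so time in culture and FID cannot be told apart if the groups differed in time. RNA of 3 biological replicates, numbered 1, 2 and 4, was amplified and hybridised as FID against control on 6 two-colour arrays, each replicate on 2 arrays with the dyes exchanged.

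Actin is a filament-forming protein that cells build up and take down continuously. Profilin and cofilin supply and recycle its monomers, the Arp2/3 complex starts branches, capping protein stops growth at filament ends, and tropomyosins lie along the filament and govern which motors and crosslinkers bind it. Non-muscle myosin II pulls on filaments when its light chains are phosphorylated, and ezrin, radixin and moesin (the ERM proteins) tie filaments to the plasma membrane. In cumulus cells, actin fills the projections that reach through the zona pellucida to the oocyte. Cyclic AMP is known to loosen contractile actin bundles in many cell types, and free actin monomer restrains the SRF coactivators that drive many actin genes.

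Median probe intensities per array were 173 to 294 units in FID and 143 to 255 units in control, and 51.1% to 84.7% of probes exceeded the negative control spots in FID, against 58.4% to 86.5% in control. These shares went with the dye, at 51.1% to 71.2% in Cy5 channels and 75.1% to 86.5% in Cy3 channels over both groups. Ratios below are log2 ratios of FID over control, so a negative value is lower in FID, and each replicate's value is the mean of its 2 dye-swapped arrays. Levels are log2 intensities scaled across arrays, and levels of single genes are compared only within a probe. For cell type markers the levels of a list's probes were summed, and in such a sum the brightest probes weigh most. A gene is represented by its brightest tested probe. In bulk samples, fewer cells of a type and less RNA per cell cannot be told apart.

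Most actin and contractile genes had lower values in FID, while TPM1, TPM2 and EZR had higher ones. The genes were chosen with earlier results of these data known, so comparisons of their counts with all genes describe the list and do not test it. The ratio was below 0 for 29 of the 39 genes, against 48.6% of all tested genes, and the median ratio was -0.53, against 0.01 for all genes. By replicate the median of the 39 genes was -0.54, -0.44 and -0.34 in replicates 1, 2 and 4. On 6 of 6 arrays 18 genes were lower, against 15.4% of all genes, and 3 genes were higher, against 12.5%. Of the 39 genes 21 had a ratio of -0.5 or lower, against 15.8% of all genes, and 4 had 0.5 or higher, against 13.1%. The levels of the 3 FID and the 3 control replicates did not overlap for 14 lower genes, where the share over all genes was 16.2%, nor for 3 higher genes, where it was 13.6%. With any 1 replicate left out, 20 to 22 genes were lower on the 4 remaining arrays, against 19.9% to 22.3% of all genes, and 3 to 6 were higher, against 16.8% to 18.3%. The 6 were higher without replicate 1.

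With p-values adjusted over all probes by Benjamini-Hochberg, 0 of the 39 genes and 0 of their 69 probes reached 0.05 in limma. Of all genes 2.36% did (1.07% higher, 1.29% lower), and of all probes 1.73% did (0.773% higher, 0.96% lower). The smallest adjusted p was 0.0514 for TPM4 among representing probes, and 0.0502 for a further probe each of TPM2 and EZR. Over all tested probes the smallest was 0.0476, so every call lay just under the threshold. No call remained with no background subtraction, with spots marked as ignored kept, with the deposited log2 ratios or with any replicate left out. With a replicate left out fewer ratios per probe remain and the test loses power, so the lack of calls there says little. Passing and not passing therefore differ little here. At an unadjusted p under 0.05 there were 22 genes, against 28.6% of all genes. Of these 19 were lower and 3 higher, where the shares over all genes were 16.1% lower and 12.5% higher. An alternative model, called the block fit below, took the 6 arrays singly, with dye as a term and replicates as random blocks. In it 19 genes passed, against 20.8% of all genes: 16 genes passed as lower, against 11.9% of all genes, and 3 as higher, against 8.85%. That fit counts both arrays of a replicate towards its degrees of freedom, so its values are an alternative and not independent support. The words higher and lower below describe measured means and not calls of limma's main test, unless a call is named.

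**Figure D1:**
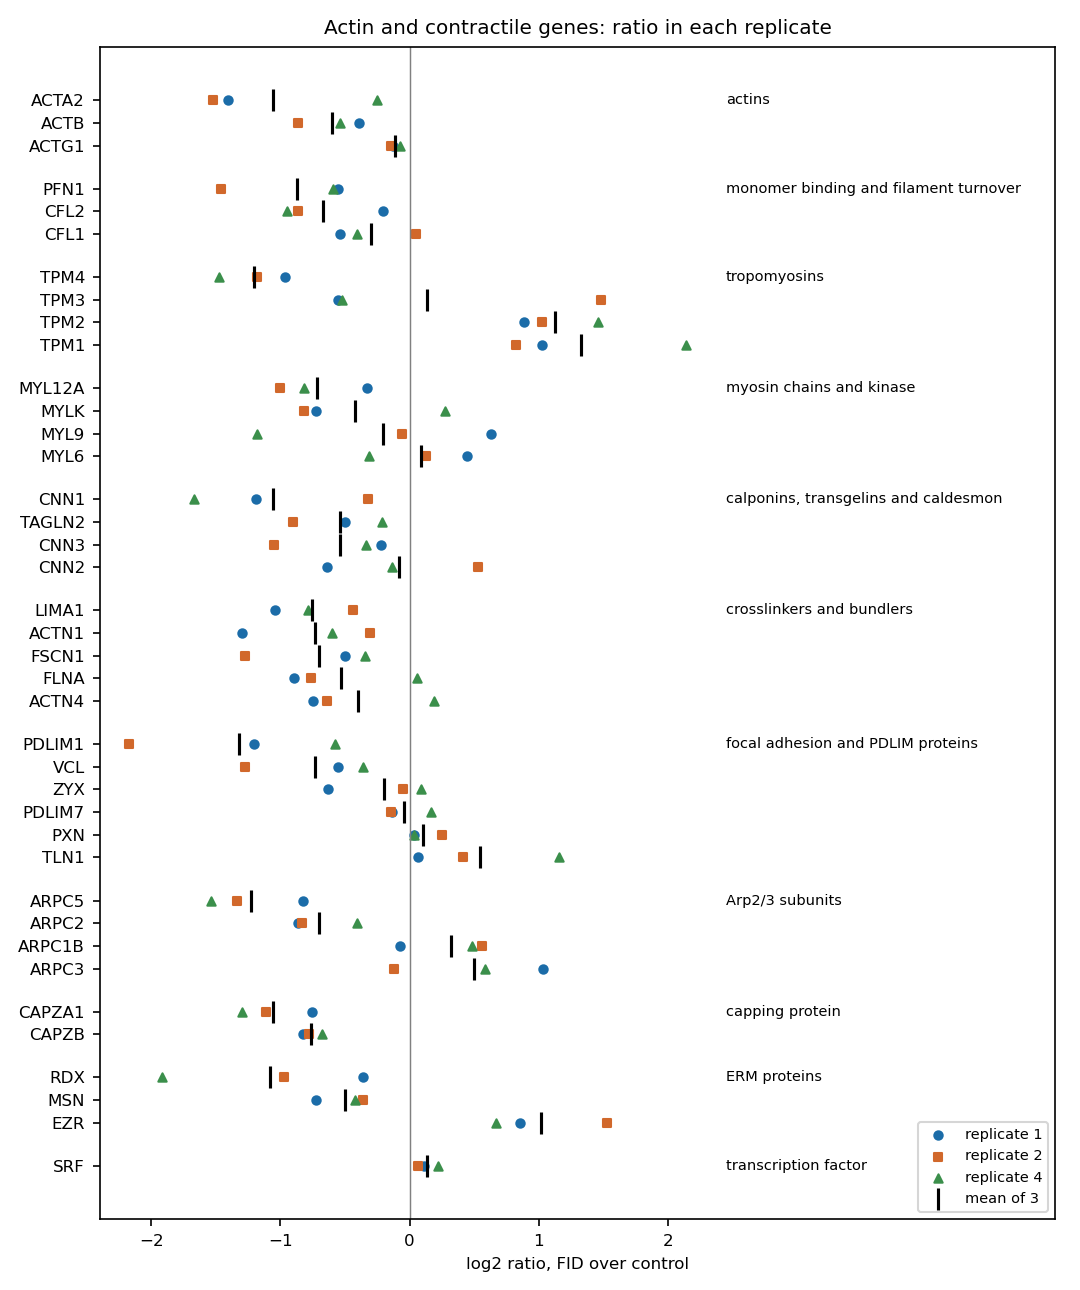
Log2 ratio of FID over control (x axis) for each of the 39 tested genes (y axis, grouped by role), with a point per replicate (mean of 2 dye-swapped arrays) and a bar at the mean of 3. All 5 crosslinkers and bundlers and both capping protein subunits have means below 0, while TPM1, TPM2 and EZR lie above 0 in all 3 replicates and TPM4, RDX and ARPC5 below 0 in all 3.

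The tropomyosins split in direction. TPM2 encodes beta-tropomyosin, a form of contractile filaments, and its level was 14.30, 14.22 and 14.03 in FID, against 13.41, 13.19 and 12.58 in control. Every FID replicate was above every control replicate, and the ratio was 1.12 ± 0.15 (SE, n = 3, 2.18-fold, limma adjusted p = 0.0575). TPM1, which encodes alpha-tropomyosin, had 9.69, 8.99 and 10.43 in FID, against 8.67, 8.17 and 8.29 in control. Its groups did not overlap either, with a ratio of 1.33 ± 0.31 that was largest in replicate 4, at 2.14.

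TPM4, a short tropomyosin of non-muscle cells, went the other way. Its level was 14.29, 14.09 and 13.78 in FID, against 15.26, 15.27 and 15.25 in control, and the ratio was -1.21 ± 0.13 (SE, n = 3, limma adjusted p = 0.0514). The control level was nearly the same in the 3 replicates, and this probe was saturated in control on 2 of 6 arrays. The ratio of this TPM4 probe also depended on dye, at -0.58 with only FID in Cy5 and -1.83 with only FID in Cy3. The SE, taken over replicate means, leaves that spread out. The dye term of the block fit was 0.63 on this probe, and 0.07 and 0.29 on the other TPM4 probes. The ratio of TPM2 exceeded that of TPM4 by 1.85, 2.20 and 2.94 in replicates 1, 2 and 4, differences that saturation of the TPM4 probe in control can understate. TPM3, the remaining tropomyosin, had ratios of -0.56, 1.48 and -0.52, so the sign of its mean of 0.13 ± 0.49 rested on replicate 2. Without replicate 2 its ratio was -0.54. Replicate 2 was also the one with the highest oocyte marker ratio, with a median of 2.92 over 14 markers, against 1.17 in replicate 1 and 0.11 in replicate 4. The part of oocyte RNA in the TPM3 value was not tested.

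**Figure D2:**
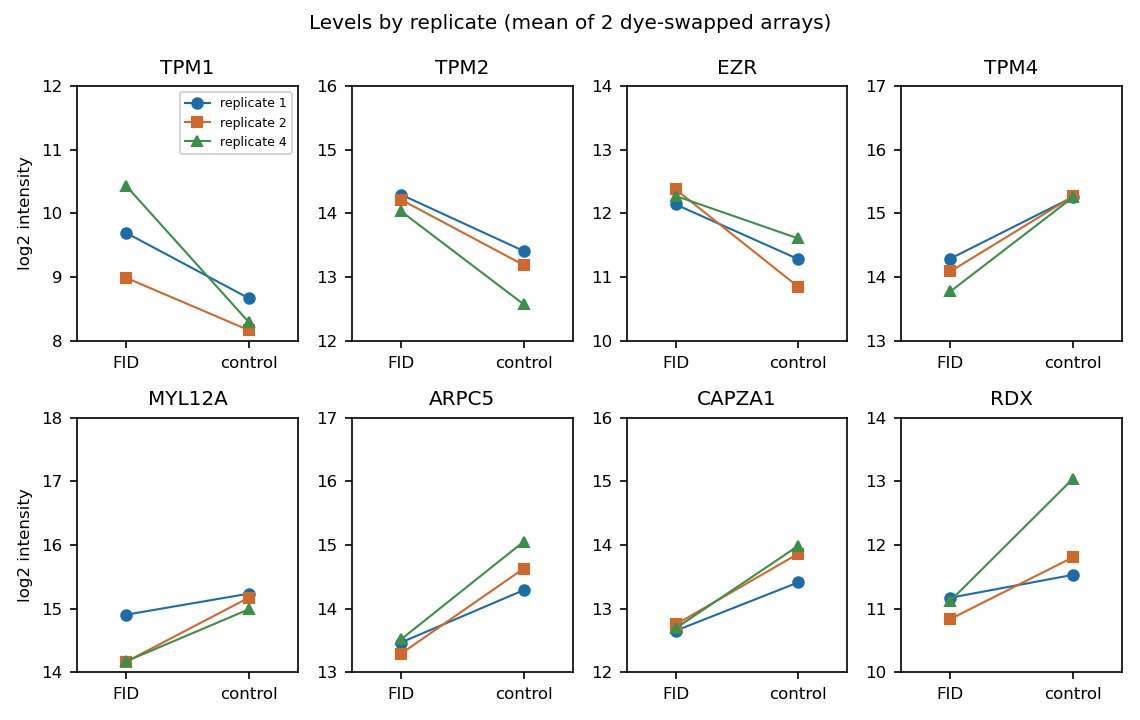
Log2 intensity (y axis, 4 units in each panel) of 8 genes in FID (left) and control (right), with a line per replicate joining its means of 2 dye-swapped arrays. The groups do not overlap in any panel: TPM1, TPM2 and EZR are higher in FID, and TPM4, MYL12A, ARPC5, CAPZA1 and RDX are lower.

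The ERM proteins also differed from each other. EZR, which encodes ezrin, had levels of 12.14, 12.38 and 12.28 in FID, against 11.28, 10.85 and 11.61 in control. The FID replicates were all above the control replicates, with a ratio of 1.02 ± 0.21 (SE, n = 3, limma adjusted p = 0.0921). RDX, which encodes radixin, had 11.17, 10.84 and 11.12 in FID, against 11.53, 11.81 and 13.04 in control. Its control level in replicate 4 stood above the others, and the ratios were -0.36, -0.97 and -1.92, with a mean of -1.08 ± 0.34. MSN, which encodes moesin, had 8.29, 8.78 and 8.74 in FID, against 9.01, 9.14 and 9.17 in control, with a ratio of -0.50 ± 0.12. The ratio of EZR exceeded that of RDX by 1.22, 2.50 and 2.58 in the 3 replicates, and that of MSN by 1.58, 1.89 and 1.09. SLC9A3R1 and SLC9A3R2, scaffolds that bind ERM proteins, belong to a list of 13 genes that link protein kinase A or the ERM proteins to the cytoskeleton. Of its 11 tested genes, which include the 3 ERM genes, 0 passed limma's test, 5 had an unadjusted p under 0.05, and the median was -0.08. The block fit called 2 of them higher and 1 lower. SLC9A3R1 had a small positive ratio of 0.29 ± 0.08, and SLC9A3R2 had -0.08 ± 0.10.

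Subunits of the Arp2/3 complex had ratios on both sides of 0. ARPC5, the smallest subunit of the complex, had 13.47, 13.29 and 13.52 in FID, against 14.29, 14.63 and 15.05 in control. The groups did not overlap, and the ratio was -1.23 ± 0.17 (SE, n = 3, 2.35-fold lower, limma adjusted p = 0.0606). ARPC2, a core subunit that contacts the mother filament, had ratios of -0.86, -0.83 and -0.41, while its levels overlapped between the groups. ARPC3 had 1.03, -0.12 and 0.58, and ARPC1B had -0.08, 0.56 and 0.48, so neither kept 1 sign over the replicates. The ratio of ARPC5 lay below that of ARPC3 in every replicate, with differences of -1.85, -1.21 and -2.12.

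Both subunits of capping protein, the heterodimer that closes the fast-growing filament end, were lower in FID on 6 of 6 arrays. CAPZA1, its alpha subunit, had levels of 12.65, 12.75 and 12.69 in FID, against 13.41, 13.86 and 13.99 in control, and a ratio of -1.05 ± 0.14 (limma adjusted p = 0.0574). CAPZB, the beta subunit, had 7.66, 7.71 and 7.47 in FID, against 8.48, 8.49 and 8.15 in control. Its ratio of -0.76 ± 0.09 had the smallest SE of any gene of the 39 with a mean ratio beyond 0.5 in size, and the limma adjusted p was 0.0532.

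Among the actins, the gene usual in smooth muscle had the lowest ratio. ACTA2, smooth muscle alpha-actin, had 13.06, 12.84 and 13.46 in FID, against 14.46, 14.36 and 13.71 in control. The groups did not overlap, but replicate 4 had a ratio of only -0.26, beside -1.40 and -1.52 in replicates 1 and 2. ACTB, cytoplasmic beta-actin, had ratios of -0.39, -0.87 and -0.54 with overlapping levels. ACTG1, cytoplasmic gamma-actin, was the brightest of the 39 and had a ratio of -0.12 ± 0.08 on a probe saturated on 2 arrays in FID and 3 in control, where a difference can be understated. ACTB and ACTG1 are close in sequence, and whether their probes tell them apart could not be checked.

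The genes that supply and recycle monomers were also below 0. PFN1, profilin, had 9.67, 9.03 and 9.20 in FID, against 10.22, 10.49 and 9.80 in control, with no overlap and a ratio of -0.87 ± 0.23. CFL2, the muscle-type cofilin, had ratios of -0.20, -0.86 and -0.95, while CFL1, the non-muscle cofilin, had -0.54, 0.05 and -0.41. Of these 3 genes, PFN1 and CFL2 passed in the block fit, with adjusted p of 0.0234 and 0.0410.

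Among the myosin genes, MYL12A, a regulatory light chain of non-muscle myosin II, was lower in FID. Its level was 14.91, 14.17 and 14.18 in FID, against 15.24, 15.17 and 14.99 in control. The groups did not overlap, and the ratio was -0.72 ± 0.17 (SE, n = 3, limma adjusted p = 0.111). Saturation in control affected this probe on 1 array, and its ratio was -0.24 with only FID in Cy5 and -1.19 with only FID in Cy3. The dye term of the block fit was 0.48 on this probe, and -0.10, -0.0028 and -0.11 on the other MYL12A probes. MYL6, the essential light chain of the same motor, had 0.45, 0.13 and -0.32, and MYL9, the regulatory light chain of smooth muscle, had 0.63, -0.06 and -1.18. Neither had a common sign, and MYL9 was the more spread of the pair. MYLK, the kinase that phosphorylates the regulatory light chain, had -0.72, -0.82 and 0.27 on a dim probe that exceeded background on 3 FID and 4 control channels of 6. On their brightest probes none of the 4 tested myosin genes passed in the block fit, where MYL12A had an adjusted p of 0.0798. The other 3 probes of MYL12A passed there, with block fit adjusted p of 0.0041, 0.0019 and 0.0038. MYL12B, a near-identical neighbour of MYL12A that is not among the 43 genes, had -1.26 ± 0.22, and whether the probes tell these genes apart could not be checked.

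All 5 crosslinkers and bundlers had mean ratios between -0.76 and -0.40. LIMA1, which stabilises actin bundles, had 7.48, 7.45 and 7.17 in FID, against 8.52, 7.89 and 7.96 in control, without overlap. ACTN1, an alpha-actinin, had ratios of -1.30, -0.31 and -0.60, and FSCN1, the bundling protein fascin of cell projections, had -0.50, -1.27 and -0.34. These 3 genes were lower on 6 of 6 arrays and passed in the block fit. ACTN4, another alpha-actinin, and FLNA, filamin A, had negative ratios in replicates 1 and 2 but 0.19 and 0.06 in replicate 4. The dimmer ACTN4 probe had -0.18 in replicate 4 and was lower on 6 of 6 arrays.

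Calponins bind along filaments and damp myosin, and transgelins are their relatives. CNN1, the calponin of smooth muscle, had 9.47, 9.79 and 7.83 in FID, against 10.66, 10.11 and 9.50 in control, with overlapping groups and a ratio of -1.06 ± 0.30 that was negative on 6 of 6 arrays. CNN3, the acidic calponin, had -0.22, -1.05 and -0.34, and TAGLN2, a transgelin of non-muscle cells, had -0.50, -0.91 and -0.21. CNN2 had -0.64, 0.53 and -0.13. Only CNN1 of these 4 passed in the block fit.

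Of the focal adhesion proteins and PDLIM genes, 2 were lower and 4 were close to 0 or higher. PDLIM1, a scaffold of alpha-actinin, had the lowest mean ratio of the 39 on their brightest probes, -1.32 ± 0.34 (SE, n = 3, limma adjusted p = 0.132). With the mean of each gene's probes it was -1.06, above TPM4 at -1.61 and MYL12A at -1.28. Its level was 9.58, 9.62 and 9.90 in FID, against 10.78, 11.79 and 10.47 in control, and control replicate 2 stood above the others. VCL, vinculin, had 13.88, 13.14 and 14.32 in FID, against 14.44, 14.41 and 14.68 in control, a ratio of -0.73 ± 0.22 without overlap. TLN1, talin, which links integrins to actin, had the opposite sign from vinculin, with 0.06, 0.41 and 1.15. ZYX (zyxin), PXN (paxillin) and PDLIM7 had mean ratios of -0.20, 0.11 and -0.04. The PDLIM7 ratio was -0.14, -0.14 and 0.16 by replicate, and its 3 probes lay between -0.04 and 0.04. SRF, the transcription factor of many of these genes, had 0.11, 0.07 and 0.22, with a mean of 0.13 ± 0.09 (SE, n = 3, limma adjusted p = 0.474).

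For 13 genes more than 1 probe was tested, and the probes bear on how far 1 ratio describes a gene. The 3 probes of TPM4 gave -1.21, -1.67 and -1.95 from the brightest to the dimmest, and 3 of 4 probes of TPM2 gave 1.12, 1.34 and 0.66. The remaining TPM2 probe, above background on 4 of 6 arrays in each condition, gave -0.07. MYL12A had its weakest ratio on its brightest, partly saturated probe, and -1.64, -1.60 and -1.16 on the others. The dimmer probe of EZR gave 1.84 ± 0.20 (SE, n = 3, 3.59-fold, limma adjusted p = 0.0502), against 1.02 on the brighter one.

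MYL6 had 11 tested probes, over mean log2 intensities of 9.23 to 13.84, and their mean ratios lay between -0.17 and 0.09. The replicates kept their order on these probes, with 0.19 to 0.47 in replicate 1, -0.19 to 0.13 in replicate 2 and -0.79 to -0.21 in replicate 4. For radixin and moesin the probes did not match each other: RDX had -1.08 on its bright probe, and -0.20 and 0.11 on a pair below a log2 intensity of 8, and MSN had -0.50, -0.09 and -0.01. The probes of PFN1, CNN3 and ACTN4 gave close mean ratios, though those of ACTN4 differed in sign in replicate 4. Those of LIMA1 gave -0.76 and -0.24 and those of PDLIM1 -1.32 and -0.79. The sequences that these probes target were not used here, so which transcript variants they read is not settled.

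**Figure D3:**
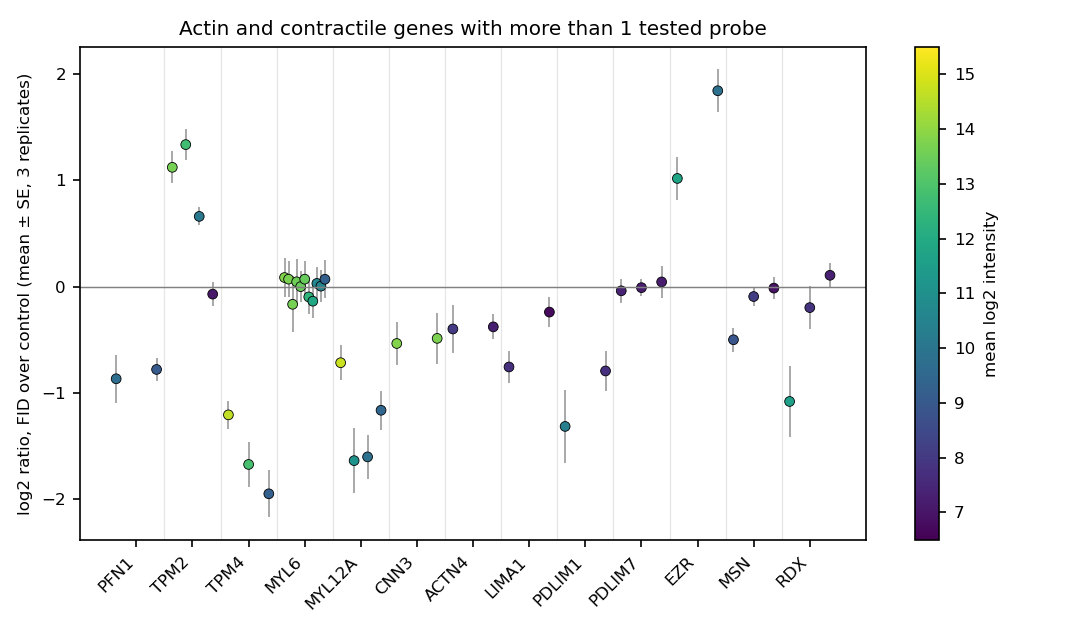
Mean log2 ratio of FID over control with its SE over 3 replicates (y axis) for every tested probe of the 13 genes with more than 1 (x axis), coloured by mean log2 intensity and ordered within a gene from bright to dim. The 11 probes of MYL6 lie between -0.17 and 0.09, the 3 of TPM4 all lie below -1.2, and the dimmest probes of TPM2, MSN and RDX lie near 0.

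The share of genes past the block fit also depended on brightness. Below a mean log2 intensity of 8, 2 of 9 genes passed there, against 6.76% of all genes that dim. Between 8 and 11 it was 6 of 12, against 32.6% of all genes, and at 11 or over it was 11 of 18, against 31.8%. The median ratio of the 18 brightest actin and contractile genes was -0.65, against -0.05 for all genes of that brightness.

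Genes around the 43 were read from lists chosen by function. Over all tested genes, the shares for reading their counts were 1.07% higher and 1.29% lower in limma, and 28.6% at an unadjusted p under 0.05. In the block fit they were 8.85% higher and 11.9% lower. The share in either direction was 6.76% below a mean log2 intensity of 8, 32.6% between 8 and 11, and 31.8% at 11 or over. Of 20 tested nucleators, WASP and WAVE proteins and formins, 1 fell and 0 rose in limma (7 at an unadjusted p under 0.05, and 3 lower in the block fit), with a median of -0.19. The gene that fell was CYFIP1, a subunit of the WAVE complex that switches on Arp2/3, with -1.04 ± 0.08 (limma adjusted p = 0.0476), and VASP, which speeds filament growth, had -1.15 ± 0.13 (limma adjusted p = 0.0506). Among 29 other capping, severing, bundling and monomer-binding proteins 1 fell and 0 rose (median -0.11), with 10 at an unadjusted p under 0.05. The block fit called 1 of them higher and 7 lower. The gene that fell in limma was MARCKSL1, an actin-binding protein of the plasma membrane, with -1.08 ± 0.11 (limma adjusted p = 0.0490). The bundler PLS3 had -1.47 ± 0.44 and the profilin PFN2 had -1.25 ± 0.22.

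Of 11 other myosins 0 passed (median -0.07), 4 had an unadjusted p under 0.05, and 1 was higher and 3 lower in the block fit. Beside MYL12B the largest ratio was that of MYH11, the smooth muscle myosin heavy chain, with 1.26, -0.14 and 2.01 in replicates 1, 2 and 4. Of 25 integrin adhesion partners 0 passed (median -0.18), 6 had an unadjusted p under 0.05, and 4 were lower in the block fit. In this list 19 had negative ratios, and VASP and ITGAV, an integrin subunit with -1.02 ± 0.29, were the furthest from 0.

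SRF cofactors and textbook targets outside the 43 genes diverged. Of 15 tested, 1 fell, 0 rose, 8 had an unadjusted p under 0.05, and 4 were higher and 4 lower in the block fit (median -0.21). ANKRD1, a nuclear protein induced by mechanical load, fell by 1.41 on the log2 scale, above background in FID on 5 of 6 arrays. The immediate early genes EGR1 and FOS had 3.65 ± 0.76 and 2.65 ± 0.84 without passing (limma adjusted p = 0.0956 and 0.176), and FOS ranged over 4.03, 0.36 and 3.56 in the replicates.

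**Figure D4:**
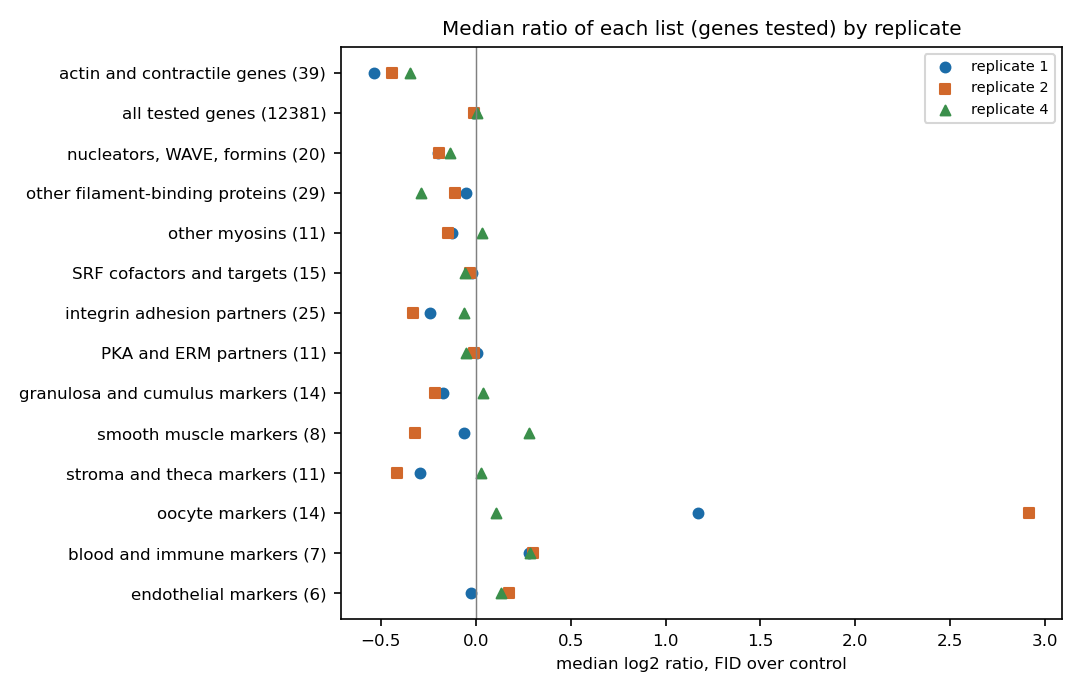
Median log2 ratio of FID over control (x axis) in each replicate for the 39 actin and contractile genes, all tested genes, 6 lists of related genes and 6 lists of cell type markers, with the number of genes tested in brackets. The 39 genes lie at -0.54, -0.44 and -0.34, all tested genes near 0, and the oocyte markers at 1.17, 2.92 and 0.11.

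Lists of cell type markers were read beside these genes, and the shares over all tested genes given for the lists of related genes apply to their counts too. Of 14 granulosa and cumulus markers, 13 exceeded background in both groups on all 6 arrays, and 0 passed limma's test, with 6 at an unadjusted p under 0.05. The log2 summed level of this list was 17.19, 17.14 and 17.30 in FID, against 17.42, 17.39 and 17.31 in control. It was lower in FID in each replicate, though nearly equal in replicate 4. Its brightest probes, those of INHA, INHBA and SERPINE2, were saturated on some arrays. The block fit called 2 higher and 4 lower. KRT8 and KRT18, keratins of epithelial cells, had -2.36 ± 0.29 and -1.76 ± 0.39, while AMH, a hormone of granulosa cells, had 1.71 ± 0.24 and NR5A2, a nuclear receptor, 1.22 ± 0.30. VCAN, GJA1 and FST had -1.30, -1.04 and -0.68. In this list 6 ratios were positive and 8 negative. Markers of stroma and theca had a log2 summed level of 12.19, 12.74 and 12.26 in FID, against 13.20, 13.51 and 13.52 in control, and 3 of 11 fell, namely PDGFRA, TCF21 and LUM, with -2.09, -2.18 and -1.49. The median ratio of these 11 was -0.30, -0.42 and 0.03 by replicate, so in replicate 4 the summed level and the median differed in direction. In this list 4 ratios were positive and 7 negative, 4 had an unadjusted p under 0.05, and the block fit called 1 higher and 4 lower. The higher one was STAR, which carries cholesterol into mitochondria, with 1.02, 3.12 and 0.59 by replicate. AMH, NR5A2, VCAN, GJA1, FST and STAR were named after their values were seen. Smooth muscle markers, which bear on ACTA2 and CNN1, had 12.59, 12.55 and 13.10 in FID, against 13.52, 13.41 and 12.51 in control, with overlapping groups. None of the 8 passed, in limma (0 also at an unadjusted p under 0.05) or in the block fit. Their ratios were positive for 4 and negative for 4, with a median of -0.02, and MYH11 was the highest at 1.04. ACTG2 of the same list, an enteric smooth muscle actin, had -1.96, -1.76 and 0.58 by replicate. ACTA2 was likewise closest to 0 in replicate 4, while CNN1 was lowest there.

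Oocyte markers had 14.24, 15.67 and 11.10 in FID, against 12.75, 11.88 and 10.88 in control, with positive ratios for 14 of 14. In limma 0 passed and 3 had an unadjusted p under 0.05, and 2 were higher in the block fit. DPPA3, a maternal-effect gene, and ZP2, a zona pellucida protein, both had 2.29, with ZP2 at 2.10, 4.62 and 0.16 by replicate. Blood and immune markers had 11.38, 12.11 and 12.33 in FID, against 11.09, 11.26 and 11.73 in control, with ITGAM above background on no array. Of 7 tested 0 passed in limma, 3 had an unadjusted p under 0.05, and 2 were higher in the block fit. CD68, a macrophage protein, had 0.53, 0.23 and 2.70 by replicate, so its mean of 1.15 ± 0.57 rested on replicate 4, and HBA, a haemoglobin chain, had 0.94 ± 0.29. Endothelial markers had 10.10, 10.26 and 10.09 in FID, against 10.05, 10.24 and 10.00 in control. Of them 0 of 6 passed in limma or the block fit and 2 had an unadjusted p under 0.05, and the receptors KDR and TEK had -0.41 and 0.38. In both groups on all 6 arrays, 0 of these 6 exceeded background, so their values are limited by background. The same count was 4 of 14 for oocyte and 4 of 7 for blood and immune markers. It was 5 of 11 for stroma and theca and 5 of 8 for smooth muscle markers. The part of these cells in the ratios of the actin and contractile genes was not tested.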

How the data were processed

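The authors deposited scanner files with raw spot intensity and local background intensity at 532 nm (Cy3) and 635 nm (Cy5), not subtracted, per the file headers, and log2 ratios whose normalization is not stated in those sources. Set against scanner values, the deposited log2 ratios ran as Cy5 over Cy3 (slopes 0.971 to 0.994 over 5957 bright probes), with array medians of -0.0185 to -0.00285, and how they were centred stays unknown. They served as an alternative. Intensities were corrected with limma 3.58.1 in R 4.3.3 (normexp, offset 50), leaving out 13 to 88 spots per array marked as ignored before the fit, and normalized by loess within arrays with control spots at weight 0. That choice about marked spots follows earlier work on these data in which keeping them gave no calls. Signs were turned to FID over control and the 2 arrays of a replicate averaged. Probes (32192) that exceeded the 95th percentile of 153 negative control spots on 4 or more arrays, in either group, were tested against 0 with lmFit and eBayes (2 residual and 1.86 prior degrees of freedom), and p-values were adjusted over all of them at 0.05. The fit was tested on simulated data. The block fit had a consensus correlation of 0.607. The platform annotation gave 1 symbol for 21790 probes, none for 22004 and several for 0. All 43 symbols matched RefSeq. Levels were scaled with Aquantile. Members and lists were chosen with earlier results of these data known. Named are all 43 genes, with replicate values for passing genes, the 12 largest ratios and genes whose probes differ in sign, and from each list every passing gene and the 2 largest ratios. The sources used here call the replicates biological without naming separate cultures or animals, so p-values measure only the spread between these samples. The replicate block comes from the labels, since both arrays of a number hold the same RNA pair. The number of arrays limits precision. Beside the 6 lists of related genes given, 1 further list is not reported here.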

Additional observations from a re-analysis of the deposited data

How the results depend on the processing

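In limma, 0 of the 39 genes and 0 of their probes passed in the reported fit, with no background subtraction, with marked spots kept in the background fit, with the deposited log2 ratios and with Aquantile scaling, which leaves ratios as they are. The count was 3 genes and 8 probes with a normexp offset of 16, 2 and 4 with median centring, 1 and 1 with no filter, 4 and 9 among probes above background on all arrays, 4 and 12 with only FID in Cy5, 5 and 12 with only FID in Cy3, 5 genes with the mean of a gene's probes, and 19 genes and 29 probes with the replicate block and a dye term. TPM2 passed in 7, CAPZB in 6, TPM4 in 5 and CAPZA1 in 4 of 15 alternatives. Leaving out any replicate gave 0 to 0 genes and 0 to 0 probes, and 0 to 0 of all probes, where 15 to 21 of the 39 genes had an unadjusted p under 0.05. Those fits rest on fewer ratios per probe, so their lack of calls says little. Over all probes 558 passed, against 1061 with offset 16, 980 above background on all arrays, 1675 with FID in Cy5, 2320 with FID in Cy3, 5190 with the replicate block, and 0 with no background subtraction, with marked spots kept and with deposited ratios, where 7104, 7031 and 7430 had an unadjusted p under 0.05. With median centring 114 genes were higher and 247 lower, against 132 and 160. The median ratio of -0.53 became -0.66 with median centring, -0.42 with no filter, -0.41 with FID in Cy5 and -0.42 with the mean of probes, and -0.64 to -0.42 when a replicate was left out. Directions turned in 18 of 583 values, for 7 genes near 0. Many of the 583 could not turn, since some alternatives leave each gene's ratio as it is. These were Aquantile scaling, no filter, the filter for background on all arrays, and the replicate block with a dye term. MYL6 turned to -0.089 with median centring, -0.12 with FID in Cy5, -0.094 without replicate 1 (up to 0.29 without replicate 4), -0.0029 with deposited ratios and -0.0025 with the mean of probes. PDLIM7 turned to 0.016 with median centring, 0.22 with FID in Cy3, 0.0096 without replicate 1 and 0.013 without replicate 2 (-0.14 without replicate 4). TPM3 turned to -0.076 with median centring, -0.020 with FID in Cy5 and -0.54 without replicate 2 (0.48 without replicate 1). CNN2 turned to 0.14 with FID in Cy5 and 0.20 without replicate 1 (-0.39 without replicate 2), MYL9 to 0.18 with FID in Cy3 and 0.28 without replicate 4 (-0.62 without replicate 1), ZYX to 0.02 without replicate 1 (-0.34 without replicate 4) and SRF to -0.0093 with FID in Cy3. The cause was not tested. A slide or scan block was not run, since the files used here give neither. Ratios of dim probes are limited by signal over background.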
